A study of Mus musculus and Homo sapiens with 10 samples.

Results

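The genes described here are 9 human genes of mitophagy and of the LC3 (ATG8) family: BNIP3, BNIP3L, PINK1, SQSTM1, MAP1LC3A, MAP1LC3B, MAP1LC3C, GABARAPL1 and GABARAPL2. They were picked by name from a table of 22060 human gene symbols, and the RefSeq entry with the highest mean level stood for each gene. The choice was made with their values in the human libraries known, so these values are given as a description, without a test. The study concerns the control of L1 retrotransposons in embryonic stem (ES) cells of human and mouse. Human H1 cells, an established ES cell line, were sequenced at passage 69 after transduction with a lentivirus (LV) carrying hairpins against the DNA methyltransferases (sh-DNMTs, named DNMTs-TKD by the submitters) or an empty hairpin vector (sh-empty, the control), with 1 library per group. Mouse ES3 cells of the C57BL/6 strain were sequenced 4 days after transduction with LV sh-Gm6871, against a KRAB zinc finger gene, or LV sh-empty, with 2 libraries per group. All groups thus carry a lentiviral vector, the H1 cells are 1 line, and how strongly each hairpin acted in each cell is not known from bulk RNA.

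Mitophagy is the removal of damaged or surplus mitochondria by autophagy, in which a double membrane closes around a cargo and delivers it to the lysosome. Receptor proteins in the outer mitochondrial membrane, or adaptors that bind ubiquitin, tie the cargo to ATG8 proteins (the LC3 and GABARAP branches), which are coupled to lipid on the growing membrane. BNIP3 and BNIP3L (also called NIX) are such membrane receptors and are well-known targets of hypoxia-inducible factors, PINK1 is the kinase that marks damaged mitochondria for the ubiquitin ligase Parkin, and SQSTM1 (p62) is a soluble adaptor.

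The human libraries held 92478094 reads for DNMTs-TKD and 100921087 reads for control, as worked out from the deposited values. Levels are RPKM, reads scaled to the length of the transcript and the total of the library. Read numbers of single genes are the smallest that fit their RPKM, so true numbers may be higher and intervals narrower. DNMT1, the maintenance methyltransferase, was at 28.4% of control in the DNMTs-TKD library, DNMT3B at 41.9% and DNMT3A at 67.9%. All 10 pluripotency markers passed the filter of a mean of at least 0.5 RPKM, of which 2 were at least 2-fold lower in DNMTs-TKD (TDGF1 with a ratio of 0.344, and DNMT3B, itself a DNA methyltransferase) and 1 was higher (L1TD1, 2.78), with a median ratio of 0.818. The core factor POU5F1 was at 893 RPKM in DNMTs-TKD and 921 RPKM in control, while SOX2 had a ratio of 0.619 and NANOG had 1.89. Of the markers of other cell types, the filter was passed by 0 of 5 mesoderm, 1 of 5 neuroectoderm, 1 of 5 endoderm, 1 of 5 trophectoderm and 3 of 7 fibroblast genes. The neuroectoderm gene was NES, with a ratio of 1.51. The endoderm gene was FOXA2, at 1.24 RPKM in DNMTs-TKD and 0.00816 RPKM in control, so it passed through the DNMTs-TKD library alone. The trophectoderm gene was KRT7, at 2.84 RPKM in DNMTs-TKD and 11.4 RPKM in control. Markers below the filter also differed, in both directions. ZIC1 was at 0.118 RPKM in DNMTs-TKD and 0.00947 RPKM in control, AFP at 0.596 and 0.190 RPKM, and SOX1 at 0.0711 and 0.181 RPKM, in the same order. The summed level of the fibroblast genes that passed was 154 RPKM in DNMTs-TKD and 94.7 RPKM in control. THY1, which ES cells also carry, was at 109 RPKM in DNMTs-TKD and 35.2 RPKM in control, while the collagen genes COL1A1 (18.2 RPKM in DNMTs-TKD and 22.8 RPKM in control) and COL1A2 (26.1 RPKM in DNMTs-TKD and 36.7 RPKM in control) had ratios below 1. The fibroblast genes below the filter were all higher in DNMTs-TKD. COL3A1 was at 0.0926 RPKM in DNMTs-TKD and 0.00722 RPKM in control, and POSTN at 0.474 RPKM in DNMTs-TKD and 0.175 RPKM in control. LUM and DCN had a fitted 1 read in DNMTs-TKD and 0 in control. The part of these differences in the results below was not tested. In bulk RNA, fewer cells with a transcript and less of it per cell cannot be told apart.

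The related receptors BNIP3 and BNIP3L were lower in the DNMTs-TKD library. BNIP3 stood at 9.64 RPKM in DNMTs-TKD (1368 reads) and at 149.9 RPKM in control (23229 reads). The DNMTs-TKD level was 6.43% of control, with a 95% interval of 6.08 to 6.79% from counting error alone. Its ratio was the 30th lowest of 13043 genes with a mean of at least 0.5 RPKM. By level, it ranked 4647th among these genes in DNMTs-TKD and 233rd in control. BNIP3L, its closest relative, stood at 10.6 RPKM in DNMTs-TKD (3447 reads) and 25.5 RPKM in control (9016 reads), or 41.7% of control (interval 40.1 to 43.4%). The balance of the pair thus differed between the libraries. The level of BNIP3 was 0.906 times that of BNIP3L in DNMTs-TKD and 5.88 times in control, and their sum was 20.3 RPKM in DNMTs-TKD and 175 RPKM in control. Processed copies of BNIP3 exist in the human genome, and reads that fit several of them may have been placed in more than 1 way, a step the sources do not state.

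The kinase and the adaptor lay on opposite sides of control. PINK1 was at 2.56 RPKM in DNMTs-TKD (317 reads) and 8.78 RPKM in control (1187 reads), which is 29.1% of control (interval 25.7 to 33.0%). SQSTM1 was at 31.0 RPKM in DNMTs-TKD (4084 reads) and 19.2 RPKM in control (2757 reads), a ratio of 1.62 (interval 1.54 to 1.70). All 3 RefSeq entries of SQSTM1 gave a ratio of 1.62. The other entries fitted 8188 and 8375 reads in DNMTs-TKD at nearly the same level, so 4084 reads is a minimum and its interval may be too wide. SQSTM1 was 3.22 times as high as BNIP3 in DNMTs-TKD and 0.128 times as high in control, so the order of the adaptor and the receptor by level was opposite in the 2 libraries.

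**Figure D1:**
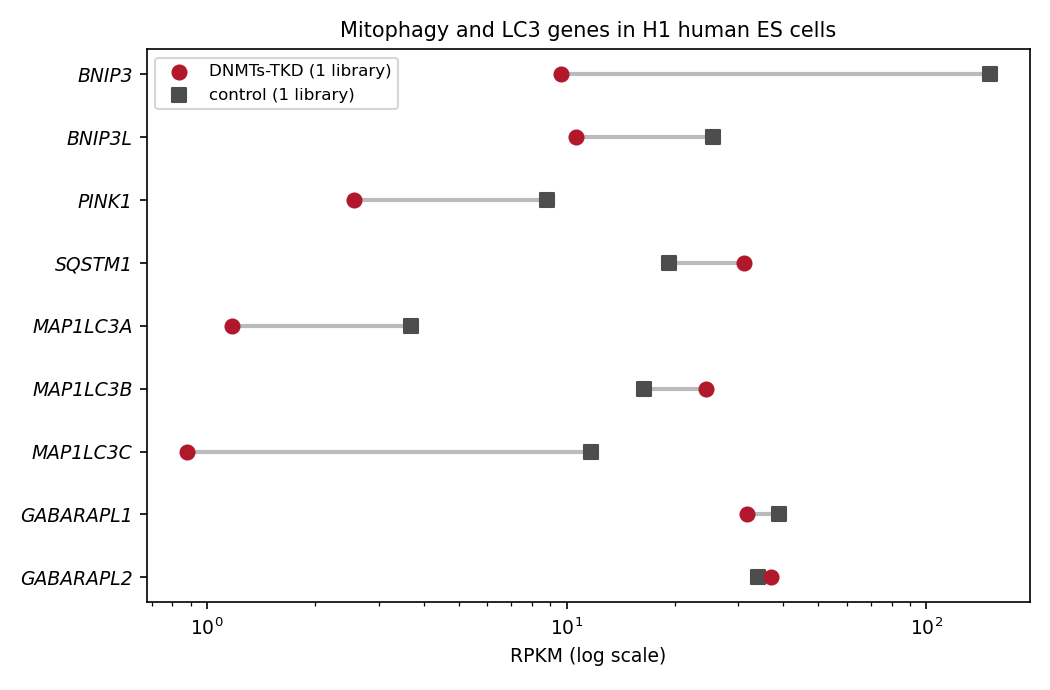
Level of each gene in H1 cells in RPKM on a log axis, with a circle for the DNMTs-TKD library and a square for the control library, 1 library each. BNIP3 and MAP1LC3C show the widest gaps, at 9.64 against 149.9 RPKM and 0.880 against 11.7 RPKM, while GABARAPL1 and GABARAPL2 lie close together.

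Within the LC3 branch the 3 genes differed in direction. MAP1LC3C stood at 0.880 RPKM in DNMTs-TKD (97 reads) and 11.7 RPKM in control (1409 reads), or 7.51% of control (interval 6.05 to 9.23%), the 41st lowest ratio of the 13043 genes. MAP1LC3A stood at 1.17 RPKM in DNMTs-TKD (111 reads) and 3.69 RPKM in control (384 reads), or 31.5% of control (interval 25.3 to 39.1%). Its other RefSeq entry gave a ratio of 0.342 (interval 0.199 to 0.566, from fitted minimums of 21 reads in DNMTs-TKD and 67 in control). MAP1LC3B, the form most used as a marker of autophagosomes, was the LC3 gene with the highest level in both libraries. It stood at 24.4 RPKM in DNMTs-TKD (1301 reads) and 16.4 RPKM in control (954 reads), a ratio of 1.49 (interval 1.37 to 1.62). MAP1LC3B2, a near-identical copy of MAP1LC3B, was at 18.4 RPKM in DNMTs-TKD and 10.8 RPKM in control (ratio 1.70). Whether reads were shared between both was not tested, and MAP1LC3B2 is left out of the family sums below. The level of MAP1LC3B was 27.8 times that of MAP1LC3C in DNMTs-TKD and 1.40 times in control.

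The GABARAP branch, which acts mainly in closing the autophagosome and joining it to the lysosome, differed little between the libraries. GABARAPL1 was at 31.6 RPKM in DNMTs-TKD (5516 reads) and 39.0 RPKM in control (7417 reads), a ratio of 0.812 (interval 0.784 to 0.840). GABARAPL2 was at 36.9 RPKM in DNMTs-TKD (3515 reads) and 34.1 RPKM in control (3545 reads), a ratio of 1.08 (interval 1.03 to 1.13). GABARAP itself, the founding gene of the branch, was at 67.6 RPKM in DNMTs-TKD and 65.2 RPKM in control. With no replicates, whether any human ratio given here, small or large, exceeds the spread between cultures cannot be said.

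Summed over MAP1LC3A, MAP1LC3B, MAP1LC3C, GABARAP, GABARAPL1 and GABARAPL2, the ATG8 family stood at 163 RPKM in DNMTs-TKD and 170.1 RPKM in control. The GABARAP branch made up 83.7% of this sum in DNMTs-TKD and 81.3% in control. Inside the LC3 branch, MAP1LC3B made up 92.3% in DNMTs-TKD and 51.6% in control, while MAP1LC3C made up 3.32% in DNMTs-TKD and 36.8% in control. MAP1LC3A made up 4.40% of the branch in DNMTs-TKD and 11.6% in control. The total of the family was thus nearly level while the make-up of its LC3 branch differed.

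**Figure D2:**
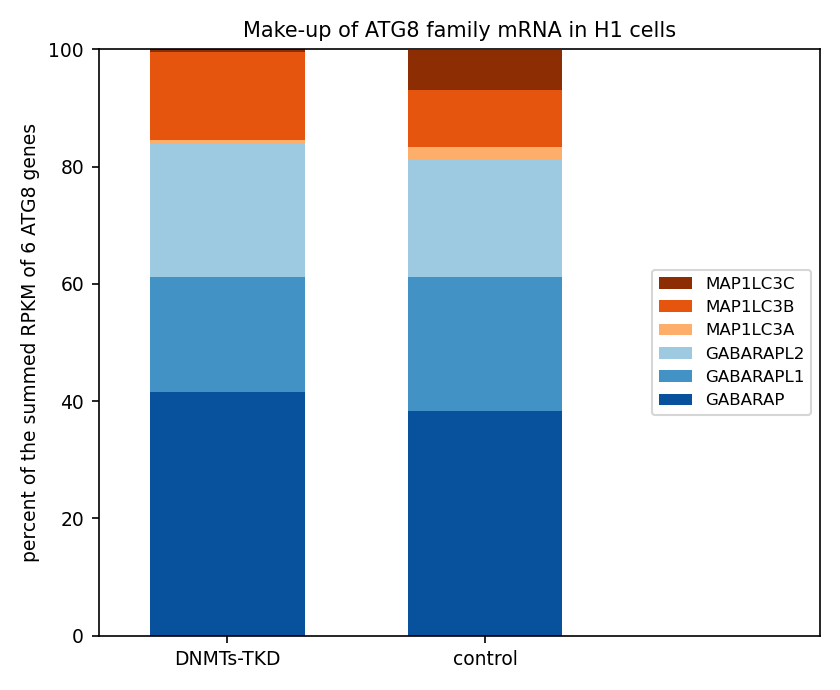
Share of each of 6 ATG8 genes in their summed RPKM (y axis, percent), with the DNMTs-TKD library on the left and the control library on the right. The 3 GABARAP genes fill 83.7% of the DNMTs-TKD bar and 81.3% of the control bar, and MAP1LC3C fills 0.541% of the DNMTs-TKD bar and 6.89% of the control bar.

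Of the 9 genes, 5 were at least 2-fold lower in DNMTs-TKD (BNIP3, BNIP3L, PINK1, MAP1LC3A and MAP1LC3C) and 0 were at least 2-fold higher. Over all 13043 genes, 7.53% were at least 2-fold lower and 6.49% at least 2-fold higher (14.0% in either direction), and nothing is read from this contrast, since it was in view when the genes were chosen. At 1.5-fold, the same 5 were lower, beside 16.5% of all genes, and 1 was higher (SQSTM1), beside 15.8% (32.3% in either direction). MAP1LC3B, with a ratio of 1.49, lay just short of it. All 9 passed the filter of 0.5 RPKM on the mean, and the lowest value in any library was 0.880 RPKM. The median log2 ratio, on RPKM + 0.5, was -1.22 for the 9 genes and 0.01 for all genes. In DNMTs-TKD the order by level was GABARAPL2, GABARAPL1, SQSTM1, MAP1LC3B, BNIP3L, BNIP3, PINK1, MAP1LC3A and MAP1LC3C, and in control BNIP3 came first and MAP1LC3A last. The span between the highest and the lowest gene was 41.9-fold in DNMTs-TKD and 40.6-fold in control.

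**Figure D3:**
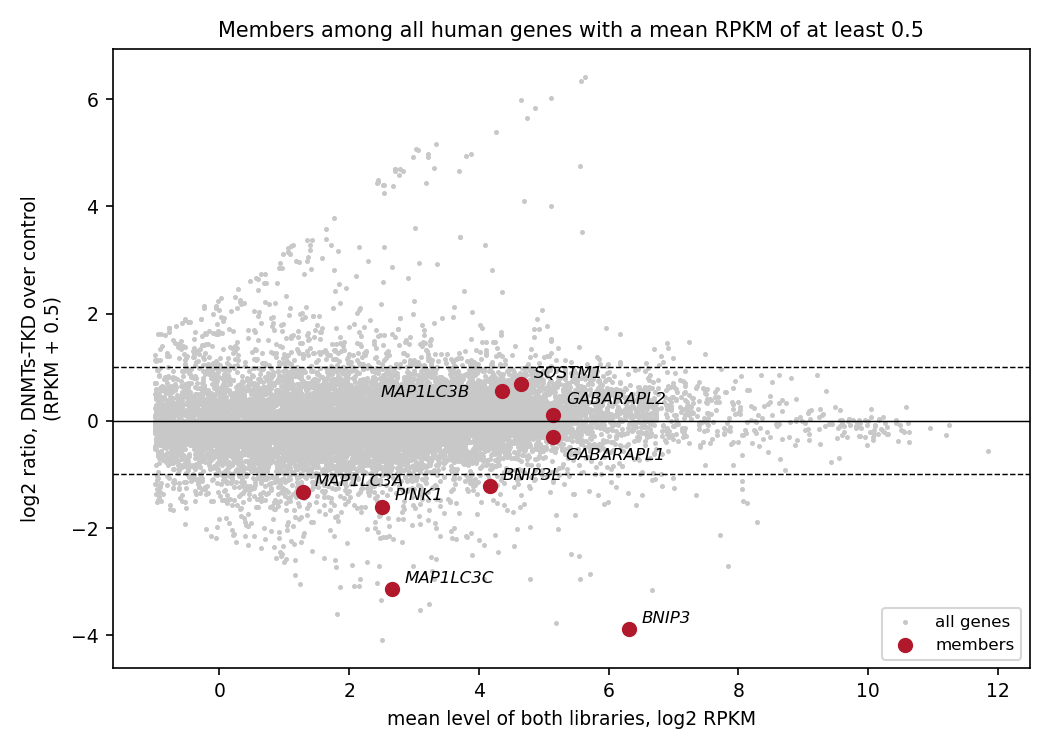
Log2 ratio of DNMTs-TKD over control on RPKM + 0.5 (y axis) against the mean level of both libraries in log2 RPKM (x axis), for all genes in grey and the 9 genes (members) in red, with dashed lines at 2-fold on this scale. BNIP3 (-3.89) and MAP1LC3C (-3.15) lie at the lower edge of the cloud, and SQSTM1 (0.68) and MAP1LC3B (0.56) lie above 0.

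The machinery around these genes was read from lists of named genes, of which those with a mean of at least 0.5 RPKM are counted. Over all genes the median ratio was 1.01, with 7.53% at least 2-fold lower and 6.49% at least 2-fold higher, and every list count below stands beside these shares. The lists were chosen with earlier results of these data known. Their counts are thus a description, and nothing is read from the contrast with these shares. The enzymes that couple ATG8 proteins to lipid stayed within 2-fold, with 0 of 11 lower and 0 higher and a median ratio of 1.02. The outermost were ATG4D, a protease that trims ATG8 proteins, at 7.01 RPKM in DNMTs-TKD and 10.0 RPKM in control, and its relative ATG4A, at 0.962 RPKM in DNMTs-TKD and 0.673 RPKM in control. Between them lay ATG10 (ratio 0.875) and the scaffold ATG16L1 (ratio 1.33). Of 21 genes of autophagy initiation and membrane supply, 1 was at least 2-fold lower, the kinase ULK2, at 0.645 RPKM in DNMTs-TKD and 2.24 RPKM in control, and 0 were higher. Its relative ULK1, named after the values were seen, was at 12.7 RPKM in DNMTs-TKD and 9.18 RPKM in control. The omegasome protein ZFYVE1 had a ratio of 0.505, while WDR45, a WIPI protein, had 1.99 and C12orf44, the ATG13 partner ATG101, had 1.55.

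Among 13 other selective autophagy receptors, 1 was at least 2-fold lower and 0 higher, with a median ratio of 0.798. The lower one was OPTN (optineurin), a ubiquitin-binding receptor of the PINK1 route, at 2.11 RPKM in DNMTs-TKD and 12.0 RPKM in control (ratio 0.177). CCPG1, a receptor on the endoplasmic reticulum, had a ratio of 0.623, and the highest ratios were 1.29 for TAX1BP1 and 1.16 for the inner-membrane receptor PHB2. Of the outer-membrane receptors on the list, named after their values were seen, FUNDC1 had a ratio of 1.10, BCL2L13 had 0.935 and FKBP8 had 0.753. Of 17 genes of the PINK1-Parkin pathway, 0 were past 2-fold. TOMM40, the pore of the outer mitochondrial membrane, was at 52.9 RPKM in DNMTs-TKD and 27.4 RPKM in control, and VCP, an ATPase that extracts ubiquitinated proteins, at 128 RPKM in DNMTs-TKD and 76.9 RPKM in control. USP30, a deubiquitinase that opposes Parkin, had a ratio of 0.591 and TOMM20 had 0.671. PARK2, which encodes Parkin and is named after its values were seen, did not pass the filter, at 0.0903 RPKM in DNMTs-TKD and 0.294 RPKM in control.

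Genes for mitochondrial proteins did not share the low ratios of BNIP3 and PINK1. The list of 29 genes also took in transcription regulators, among them PPARGC1A and PPARGC1B. Of the 29, 0 were at least 2-fold lower and 1 was higher, and the median ratio was 0.983. The higher one was the coactivator PPARGC1B (1.36 RPKM in DNMTs-TKD and 0.481 RPKM in control, ratio 2.82). The import protein TIMM44 had a ratio of 1.80, the coactivator PPARGC1A had 0.605 and the succinate dehydrogenase subunit SDHA had 0.685. A further list was headed BNIP3 relatives and BCL2 family. It took in BNIP1, BNIP2 and BNIPL by name, which does not make them relatives of BNIP3. Of its 12 genes that passed the filter, 2 were at least 2-fold lower and 0 were higher. The lower ones were BNIPL (ratio 0.456) and the BH3 protein PMAIP1, at 66.6 RPKM in DNMTs-TKD and 143 RPKM in control. BID had a ratio of 1.94 and BNIP2 had 1.45. Of 22 genes of the lysosome and of its regulators, 1 was lower and 0 were higher, with a median ratio of 1.10. The lower one was TFEB, a transcription factor of lysosomal genes, at 0.502 RPKM in DNMTs-TKD and 1.21 RPKM in control, while its relative TFE3 had a ratio of 0.599 and the proton pump subunit ATP6V0D1 had 1.97.

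Genes of pathways known to regulate BNIP3 and SQSTM1 were set beside them. Whether these pathways acted on either gene in these cells was not tested. Of 17 hypoxia regulators and targets, 9 were at least 2-fold lower in DNMTs-TKD and 0 higher, beside 7.53% and 6.49% of all genes. Their median ratio was 0.388. The genes of this list below the filter, named after their values were seen, were EPAS1 (ratio 2.21), CA9 (1.41) and VEGFA (0.546). The ratios of CA9 (interval 0.859 to 2.33) and VEGFA (interval 0.00925 to 10.5) give no direction. VEGFA had a fitted 1 read in DNMTs-TKD and 2 in control. DDIT4, an inhibitor of mTORC1 signalling, stood at 12.2 RPKM in DNMTs-TKD and 92.2 RPKM in control, and the collagen prolyl hydroxylase P4HA1 at 10.9 RPKM in DNMTs-TKD and 44.5 RPKM in control. The transcript of HIF1A itself was at 47.6 RPKM in DNMTs-TKD and 37.6 RPKM in control, and the peptide hormone gene ADM had the highest ratio, 1.94. Of 12 NRF2 regulators and targets, which belong to the pathway that drives SQSTM1 under oxidative stress, 4 were at least 2-fold higher and 0 lower, with a median ratio of 1.26. They were the cystine transporter SLC7A11 (6.79 RPKM in DNMTs-TKD and 1.60 RPKM in control), the quinone reductase NQO1 (25.3 RPKM in DNMTs-TKD and 7.01 RPKM in control), the heme oxygenase HMOX1 (ratio 3.29) and the glutathione synthesis gene GCLM (ratio 2.09). FTH1 (ratio 0.667) and ABCC1 (ratio 0.726) were the lowest of that list.

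Of 9 genes of the ATF4 pathway, which also serves LC3 genes under amino acid shortage, 3 were at least 2-fold higher and 1 lower, with a median ratio of 1.48. These were the amino acid transporter SLC7A5 (ratio 2.60), the pseudokinase TRIB3 (2.31) and the serine synthesis enzyme PSAT1 (2.27), and VLDLR was lower (0.335), while PHGDH had a ratio of 0.893. Of 9 FOXO and AMPK regulators, 0 were past 2-fold in either direction. The transcription factor FOXO1 had a ratio of 0.546 and the kinase subunit PRKAA2 had 0.596, while PRKAA1 had 1.24 and AKT1 had 1.14. All lists were read in the same pair of libraries as the 9 genes, so they are not independent of them.

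**Figure D4:**
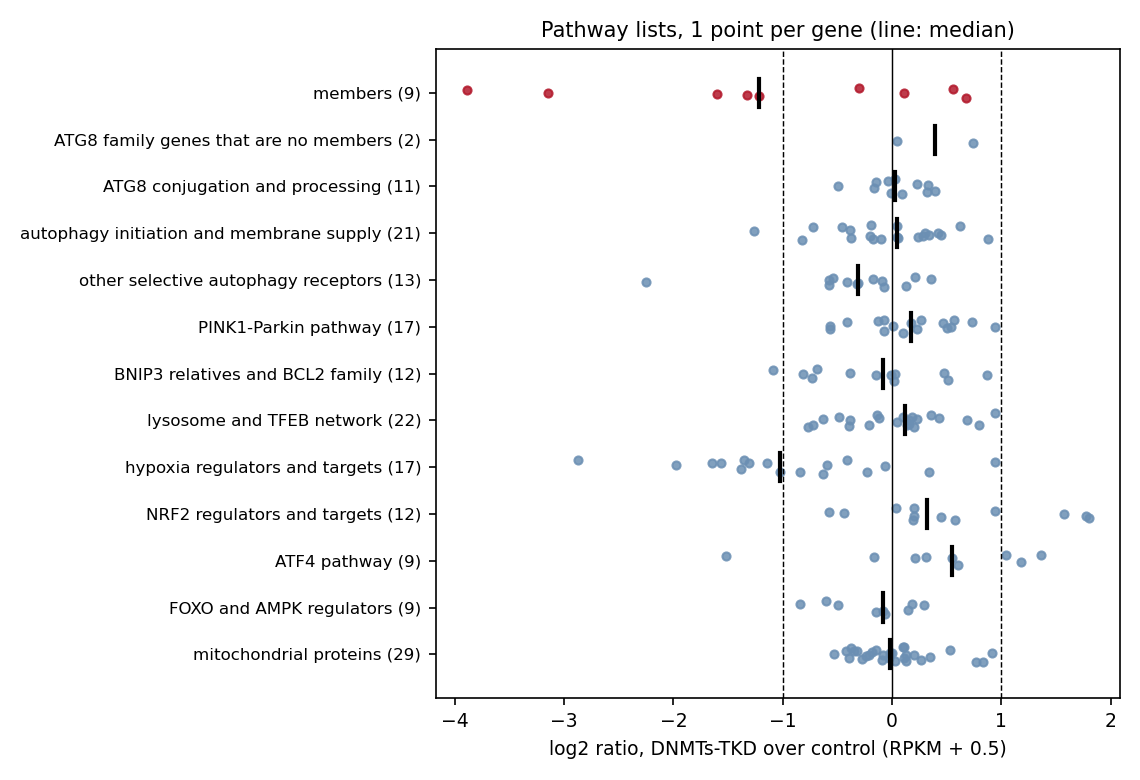
Log2 ratio of DNMTs-TKD over control on RPKM + 0.5 for each gene that passed the filter (points) in the 9 genes (members) and in 12 pathway lists, with the median as a black line, the number of genes in brackets and dashed lines at 2-fold on this scale. The members' median is -1.22 and that of the hypoxia list -1.02, while ATG8 conjugation (0.03) and mitochondrial proteins (-0.02) lie near 0.

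The mouse libraries gave the only replicated view of these genes, in another experiment and species. Of the 9 genes, 8 had a mouse gene of the same name in the table, and MAP1LC3C had none. The knockdown of Gm6871 itself was not analysed here: of its 2 reference transcripts, 0 were matched to an entry. By limma, 0 of the 8 genes passed an adjusted p of 0.05, and before adjustment the count was also 0. Over all 11658 genes tested, 0 (0%) passed, and 223 were below 0.05 before adjustment. The labels do not say whether the replicates were separate cultures, so the p-values measure the spread between these libraries, which may be technical.

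Mouse Bnip3 varied more within the groups than between them. It stood at 19.1 and 83.9 RPKM in the Gm6871-KD libraries 1 and 2, against 55.1 and 5.45 RPKM in control libraries 1 and 2. The groups overlapped, with both the lowest and the second highest value in control. The gap within a group was 4.40-fold in Gm6871-KD and 10.1-fold in control, where the median gene differed by 1.22-fold and 1.23-fold, and 0.669% of genes differed as much as Bnip3 between the control libraries. The log2 difference was 1.16 (SE 1.17, limma adjusted p = 0.997), and it was -0.45 without control 2 and 2.77 without control 1.

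The mouse promoter of Bnip3 is shown because it holds ACGTG and because Bnip3 was the most variable of the 8 genes. ACGTG is 1 form of the core letters that hypoxia-inducible factors are known to bind, the other being GCGTG. No human promoter or protein sequence was used here. The 250 bases before the start of Bnip3 lie at chr7:138909507-138909756 of GRCm38.p6 on the minus strand, from RefSeq, with capitals for the match to CACGTG, which spans bases 108 to 103 before the start.
Bnip3: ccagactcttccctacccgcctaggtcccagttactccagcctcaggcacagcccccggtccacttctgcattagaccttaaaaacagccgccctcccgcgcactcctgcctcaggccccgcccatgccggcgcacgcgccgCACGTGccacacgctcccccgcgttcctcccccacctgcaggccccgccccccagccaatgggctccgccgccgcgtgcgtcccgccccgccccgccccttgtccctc
ACGTG was searched on both strands (CACGT on the other), and CACGTG, which reads the same on both, contains it. GCGTG was not searched and is not marked, so the shares below leave it out. CACGTG is also the E-box, a site of other factors, so a match does not single out hypoxia-inducible factors. Of 32841 promoter windows of this length in the RefSeq table, 16.6% held ACGTG and 6.02% held CACGTG. Of the 6 mouse genes with a window in the table, 2 held ACGTG (Bnip3 and Gabarapl2) and 1 held CACGTG. The Bnip3 window held 24 CpG dinucleotides, more than 88.0% of all windows, and that of Map1lc3b held 30, more than 94.1%. The windows of Gabarapl1 and Gabarapl2 held 12 each, that of Pink1 13 and that of Sqstm1 14, against a median of 6.00 over all windows. These matches describe letters in mouse DNA and show neither binding nor methylation.

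Genes of the hypoxia list, read after the Bnip3 values were seen, were compared with Bnip3 for the order of the libraries. Of the 20 listed genes, 15 had a mouse gene of the same name that passed the filter. The rest were not found by name or lay below the filter, which was not told apart. Of the 15, 9 (60.0%) had, like Bnip3, a higher value in Gm6871-KD 2 than 1 and in control 1 than 2, as did 23.9% of all genes. The count takes the order alone, whatever the size of the gaps. Arnt, Egln3, Ndrg1 and Ldha were picked as examples after their values were seen. Arnt had this order with small gaps, at 1.35 and 1.46 RPKM in Gm6871-KD, against 1.69 and 1.37 RPKM in control. The prolyl hydroxylase Egln3 stood at 13.0 and 59.0 RPKM in Gm6871-KD, against 29.9 and 18.6 RPKM in control. Ndrg1, a stress-responsive gene, stood at 5.95 and 22.6 RPKM in Gm6871-KD, against 14.0 and 3.70 RPKM in control. Ldha, the lactate dehydrogenase subunit, did not follow this order, at 48.7 and 34.9 RPKM in Gm6871-KD, against 56.7 and 32.4 RPKM in control. What these genes have in common across the libraries was not tested.

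The other mouse genes were far steadier than Bnip3. Bnip3l stood at 23.9 and 26.4 RPKM in Gm6871-KD, against 26.3 and 16.0 RPKM in control, and the groups overlapped. Pink1 stood at 16.2 and 23.6 RPKM in Gm6871-KD, against 14.4 and 12.1 RPKM in control, and was the 1 gene of the 8 whose groups did not overlap, which was the case for 27.8% of all genes. Its log2 difference was 0.55 (SE 0.25, limma adjusted p = 0.997). Sqstm1 stood at 117 and 131 RPKM in Gm6871-KD, against 123 and 99.3 RPKM in control, overlapping, with a log2 difference of 0.17.

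Map1lc3b, the LC3 gene with the highest level in mouse as in human cells, stood at 92.8 and 128 RPKM in Gm6871-KD, against 91.8 and 105 RPKM in control. Map1lc3a stood at 22.1 and 14.0 RPKM in Gm6871-KD, against 22.9 and 20.7 RPKM in control. Both overlapped between the groups. Gabarapl1 stood at 37.9 and 28.3 RPKM in Gm6871-KD, against 47.2 and 28.5 RPKM in control, and its groups overlapped. Gabarapl2 stood at 63.3 and 31.3 RPKM in Gm6871-KD, against 47.2 and 63.9 RPKM in control, the widest gap within a group after Bnip3 (2.02-fold in Gm6871-KD). The log2 differences of these 4 genes lay between -0.30 and 0.15 (limma adjusted p = 0.997 each). The human and mouse tables were scaled separately, so levels were not set against each other across species.

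**Figure D5:**
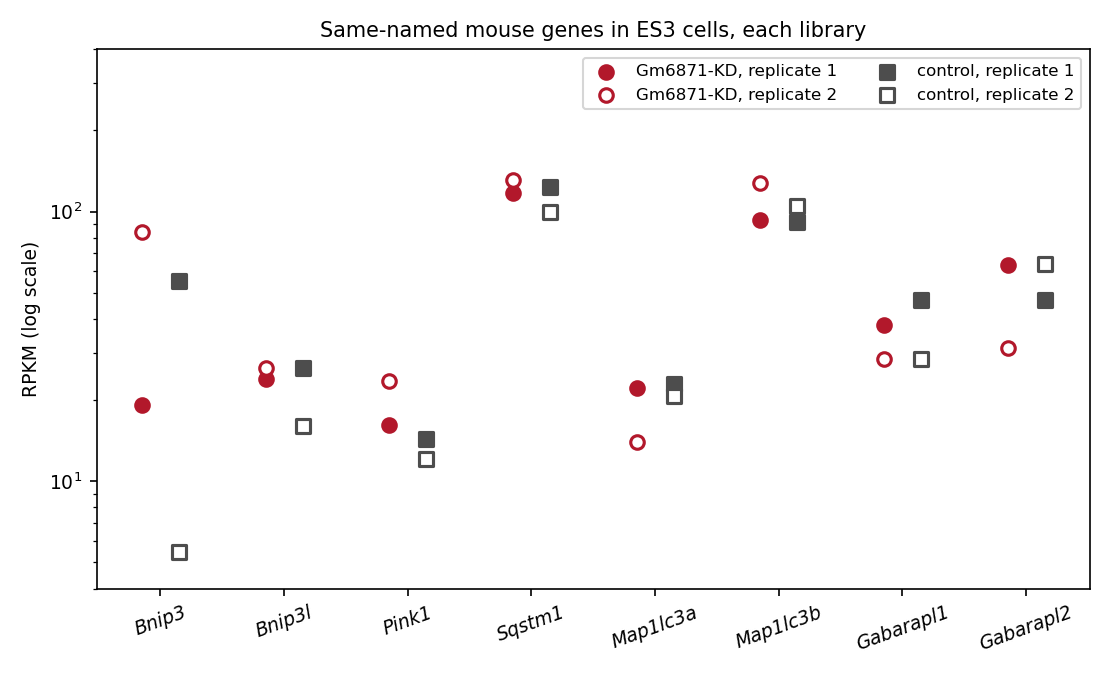
Level of 8 same-named mouse genes in ES3 cells in RPKM on a log axis, with circles for Gm6871-KD and squares for control libraries, filled for replicate 1 and open for replicate 2. Bnip3 spreads from 5.45 to 83.9 RPKM with the groups interleaved, and Pink1 shows both Gm6871-KD libraries above both control libraries.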

How the data were processed

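Per the labels' protocols, poly(A) RNA of the cytoplasm was sequenced. Per the submitters' processing notes, Bowtie 0.12.5 was used with hg19 (human) and mm9 (mouse); how reads were counted and multi-mapping reads placed is not stated. The authors deposited RPKM values per RefSeq entry and per L1 copy; raw counts were not used here. Genes, lists and tests were chosen with earlier results of these data known. Each member, its same-named mouse gene, the DNMT genes and, of each list, the genes with the 2 highest and 2 lowest ratios (and any past 2-fold where 6 or fewer were) are named. Of these, 1 gene is not reported here.

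Groups were taken from sample titles. Library totals were found as the number that made the RPKM of 100% of human L1 copies whole reads within 0.01 reads. The smallest entry length (50 to 20000 bp) giving whole reads within 0.0005 reads was then found for 100% of 350 entries. This may understate reads and so widen the intervals. Mouse library totals were not worked out here. Ratio intervals are exact at 95% (binomial, Clopper-Pearson) and cover counting error only. Of 36083 mouse entries, 27888 matched a symbol of GRCm38.p6, and the highest entry per gene left 30619. For mouse, the tool was limma 3.58.1 (R 4.3.3) with a variance trend, fitted to log2(RPKM + 0.5) of genes with a mean of at least 0.5 RPKM, with Benjamini-Hochberg adjustment at 0.05; the fit was tested on simulated data. This log scale understates differences of low genes. With 2 libraries against 2, an exact permutation test cannot go below 0.333. The alternatives were other scalings, pseudocounts, entries and folds, no filter, each mouse library left out, and a replicate block. The peak lists, their samples, the mouse L1 table and 4 columns of the authors' means and folds in the mouse gene table were not used.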

Additional observations from a re-analysis of the deposited data

How the results depend on the processing

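The count of 5 human genes at least 2-fold lower was the same under all 8 alternatives run. The count at least 2-fold higher was 0, and 1 at 1.5-fold. The median log2 ratio of -1.22 was -1.28 with upper-quartile scaling and -1.12 with a pseudocount of 1 RPKM, which is how the added constant acts on low genes. Over all human genes, median centring moved log2 ratios by 0.013. In mouse, the count of called genes among the 8 was 0 under every alternative run. With the replicate block it was 0, and the numbers were not shown to pair the libraries, since only 2 pairs exist (r = 0.292 across 11658 genes). With 1 mouse library left out, where the lone library is assumed to vary like the other group, the log2 differences ranged from -0.45 to 2.77 for Bnip3, -0.06 to 0.63 for Bnip3l, -0.62 to 0.02 for Map1lc3a, -0.08 to 0.39 for Map1lc3b, -0.52 to 0.20 for Gabarapl1 and -0.80 to 0.20 for Gabarapl2, and so changed sign, while those of Pink1 (0.29 to 0.82) and Sqstm1 (0.01 to 0.32) did not. Of the values of single genes under all alternatives, 116 held, 4 moved and 7 reversed, the reversals all with a library left out. These counts do not measure steadiness. A mouse value counted as held if its sign stayed and no call changed, so Bnip3 at 2.77 counted as held. A human value counted as held if it moved by no more than its counting error. A human gene short of 2-fold could not count as reversed. Dropping the filter, or using other entries for a gene with 1 entry, could change nothing. The human ratios have 1 library per group, so depth gives counting error only.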
